A study of Mus musculus with 19 samples.

Results

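The genes described here encode J-proteins, the subunits of the cytosolic chaperonin, the cochaperones of HSP90 and a few related chaperones. They were taken from the deposited table by symbol: every Dnaja, Dnajb and Dnajc gene except Dnajb1, Dnaja1 and Dnajb9, the chaperonin genes Tcp1, Cct2 to Cct5, Cct6a, Cct7 and Cct8, and 18 further named chaperone genes. This gave 66 members among 52110 named entries, 40 of them J-proteins and 26 other chaperones. A mean of at least 1 FPKM (fragments per kilobase of transcript, relative to the sequencing depth) over all 19 samples was required for testing, and 59 members passed it, among 10577 genes in all. The 7 members below it were Dnajb3, Dnajb5, Dnajb7, Dnajb8, Dnajb13, Dnajc6 and Dnajc27, of which Dnajb5 had the highest mean (0.525 FPKM) and Dnajb8 was listed at 0 in all but 1 sample. No test is given for them. All 26 members that are not J-proteins were tested.

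The samples are total RNA from the livers of wild-type mice in a design of 2 diets by 2 procedures. One diet was normal chow (NC). The other was a high-fat diet that lacks choline and supplies defined L-amino acids (CDAHFD), which was given to produce steatohepatitis. Mice on each diet received remote limb ischemic conditioning (RIC), meaning short spells of stopped blood flow in a limb, or were treated as sham controls. This made 4 groups: 5 samples each for chow with sham treatment (NC sham), chow with conditioning (NC RIC) and CDAHFD with sham treatment (CDAHFD sham), and 4 samples for CDAHFD with conditioning (CDAHFD RIC). The sources used here do not give age, strain, sex, length of feeding, RIC schedule or time of harvest. Whether each sample is 1 mouse is not stated, so the spread behind every p-value is that between samples, which may be technical. Liver is a bulk tissue, and fewer cells of a type and less RNA per cell cannot be told apart in it.

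J-proteins carry a J domain that stimulates the ATPase of HSP70, and their other domains choose the client or the place of work. Clients such as steroid receptors and kinases pass from HSP70 to HSP90 through a cycle in which cochaperones bridge the chaperones, bring the client, speed or slow ATP hydrolysis and hold the closed state. The cytosolic chaperonin, a ring of 8 kinds of subunit, folds actin and tubulin. Many cytosolic members of this network are targets of heat shock factors, which bind heat shock elements, inverted repeats of the triplet GAA, in promoters.

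Depth estimated from low values was 15900000 to 26400000 fragments per sample. The members held 0.216% to 0.394% of the summed FPKM of a sample. CDAHFD sham samples 2 and 5 stood apart from the others of their group on the fourth principal component, at 20.6 and 16.6, and results were repeated without both. Defining hepatocyte genes were high in every group, with summed FPKM of 8 markers between 32500 and 67100 over all samples. Even so 7 of the 8 were lower on CDAHFD in sham mice, against 10.3% of all genes. After RIC on CDAHFD 2 of the 8 were higher (Apob and Cps1) and 1 lower (Ttr), where 8.72% of all genes were higher and 18.6% lower. Macrophage markers were higher on CDAHFD in 9 of 10, against 63.9% of all genes. After RIC on CDAHFD 2 of the 10 were higher (Adgre1 and Timd4) and 8 were not called, with a list median of -0.08. Levels are given as mean FPKM ± SD over the samples of a group, differences are on the log2(FPKM + 1) scale with their standard error (SE), and folds are ratios of mean FPKM. A gene was called higher or lower at an adjusted p under 0.05 in limma with Benjamini-Hochberg adjustment over all 10577 genes.

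The comparison of CDAHFD RIC with CDAHFD sham asked what conditioning does in the liver on the disease diet. The transcripts of HSP90 cochaperones were lower after RIC: 7 of 10 fell, Fkbp4, Ahsa2, Cacybp, Stip1, Chordc1, Ptges3 and Ahsa1, by 1.64-fold to 2.61-fold in mean FPKM. Of the whole set, 19 of 59 members fell and 1, the J-protein gene Dnajc28, rose. Among all genes tested 18.6% were called lower and 8.72% higher (27.3% in either direction), so the share of members called (33.9%) was near the background while the cochaperones stood at 70%. The groups did not overlap for 17 members lower and 2 higher (Dnajc28 and Dnajb6), where 13.1% of all genes were lower and 5.26% higher without overlap (18.4% in either direction). The median difference of the members was -0.19, of the cochaperones -0.81 and of all genes -0.08. The split of calls moved with scaling: 9 members were lower and 2 higher when FPKM were rescaled to a common sum per sample, 11 and 4 under median-ratio scaling, and 17 and 6 under quantile normalization. Without CDAHFD sham samples 2 and 5 it was 16 lower and 2 higher. In 10 members (the 7 cochaperones, Serpinh1, Cryab and Dnajc28) the call was kept in every alternative analysis in which the gene was tested. J-proteins were mostly not called: 4 of 33 fell and 1 rose, with a median of -0.11.

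**Figure D1:**
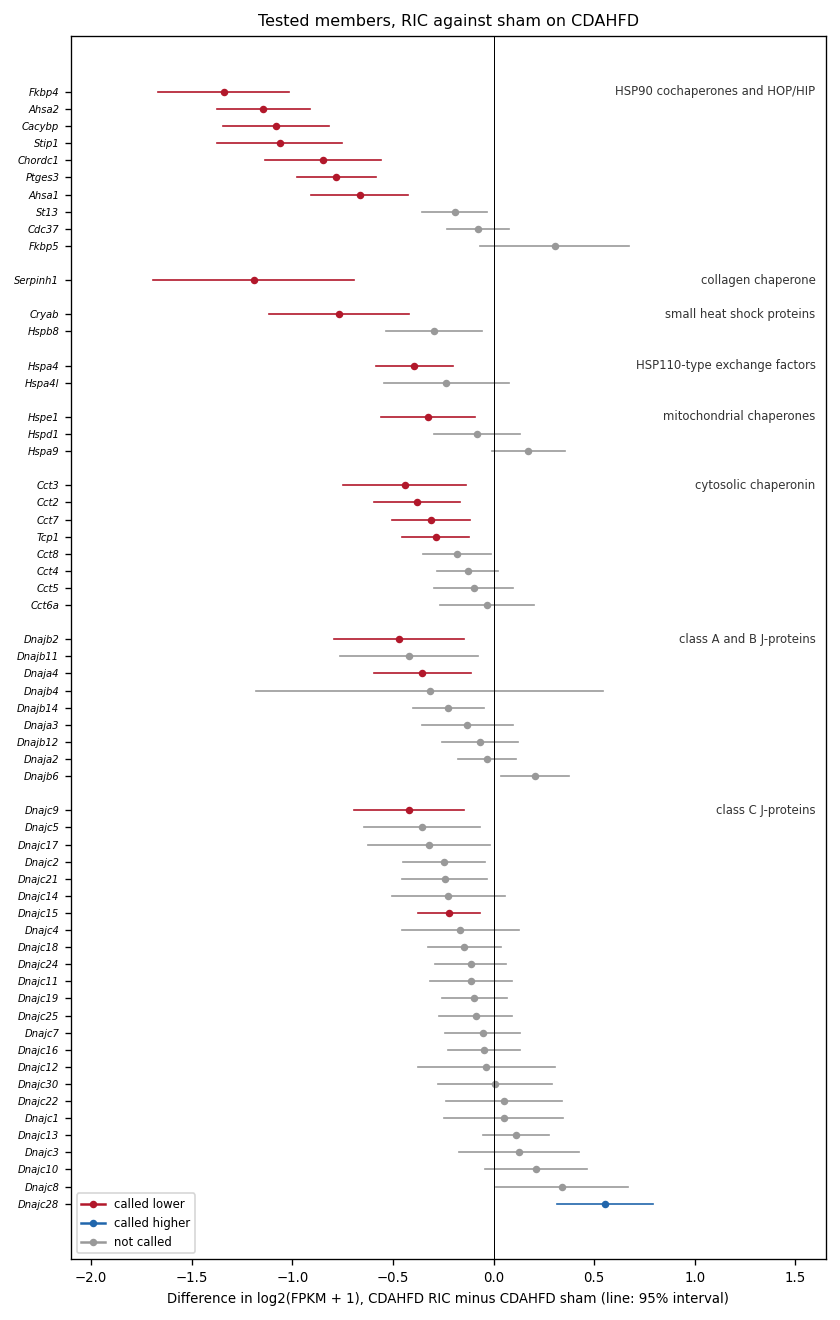
Differences in log2(FPKM + 1) between CDAHFD RIC (n = 4) and CDAHFD sham (n = 5) for the 59 tested members, grouped by role, with 95% intervals from limma as lines. Called members are coloured, and the cochaperone block at the top reaches from -1.34 (Fkbp4) to 0.30 (Fkbp5, not called), while most J-proteins lie near 0.

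Fkbp4 (chromosome 6, 128429735 to 128438677 in mm10, GENCODE M21 annotation here and below) encodes an immunophilin that binds HSP90 in steroid receptor complexes. Its FPKM were 53.0, 56.1, 62.2, 53.2 and 79.0 in CDAHFD sham and 27.6, 24.0, 20.5 and 20.9 in CDAHFD RIC. The chow samples were at 47.8, 38.4, 31.2, 39.0 and 34.9 in NC sham and 33.4, 45.8, 36.6, 25.3 and 38.0 in NC RIC. All 4 CDAHFD RIC samples were below all CDAHFD sham samples, with the chow samples between or reaching into the RIC range (the lowest at 25.3), and Fkbp4 fell by 1.34 (SE 0.16, 2.61-fold, adjusted p = 2.62e-05). It is the steepest fall of any member in this comparison.

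Stip1 (chromosome 19, 7020702 to 7039967) encodes the adaptor that bridges HSP70 and HSP90. Its values were 40.0, 36.5, 45.3, 35.4 and 52.5 FPKM in CDAHFD sham and 20.4, 21.4, 16.7 and 19.2 in CDAHFD RIC, again without overlap. It fell by 1.06 (SE 0.15, 2.16-fold, adjusted p = 0.000107). NC sham and NC RIC samples ranged over 20.6 to 33.2 and 19.7 to 31.0 FPKM. The CDAHFD RIC samples at 16.7 and 19.2 thus lay below all chow samples, and those at 20.4 and 21.4 inside the low part of the chow range. The CDAHFD sham samples lay above all chow samples.

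Ptges3 (chromosome 10, 128058954 to 128077272) encodes the p23 protein, which binds closed HSP90 and slows its ATP hydrolysis. It was the most abundant cochaperone transcript in every group. CDAHFD sham samples had 77.8, 66.4, 78.6, 76.2 and 69.3 FPKM and CDAHFD RIC samples 43.6, 44.1, 40.2 and 41.7. The groups did not overlap, and Ptges3 fell by 0.78 (SE 0.09, 1.74-fold, adjusted p = 2.94e-05). The mean of NC RIC was 40.6 ± 4.90 FPKM and that of CDAHFD RIC 42.4 ± 1.77.

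The genes of both activators of the HSP90 ATPase also fell. Ahsa1 (chromosome 12, 87266479 to 87273998) had 19.5, 17.3, 19.3, 18.2 and 22.2 FPKM in CDAHFD sham and 11.6, 11.5, 12.2 and 11.8 in CDAHFD RIC. It fell by 0.67 (SE 0.12, 1.64-fold, adjusted p = 0.000668). Ahsa2 (chromosome 11, 23487882 to 23498030) had 11.1, 10.7, 9.62, 11.9 and 12.4 FPKM in CDAHFD sham and 4.78, 4.29, 4.91 and 3.96 in CDAHFD RIC. The CDAHFD RIC values of Ahsa2 were below every other sample of the series, the lowest chow sample being at 7.36. Ahsa2 fell by 1.14 (SE 0.11, 2.48-fold, adjusted p = 4.29e-06). In the annotation 47.2% of its exon bases overlap exons of Usp34 on the opposite strand, and reads of both genes cannot be told apart there because strand use was not given. Usp34 itself, at 4.13 FPKM in CDAHFD RIC, differed from CDAHFD sham by 0.16 (adjusted p = 0.172).

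Cacybp (chromosome 1, 160202367 to 160212875) encodes a calcyclin-binding protein that also contacts HSP90 and ubiquitin ligase complexes. Its FPKM were 32.9, 30.3, 37.0, 33.5 and 38.5 in CDAHFD sham and 16.8, 16.6, 14.4 and 15.02 in CDAHFD RIC. The groups did not overlap, and Cacybp fell by 1.08 (SE 0.13, 2.19-fold, adjusted p = 2.62e-05). Chordc1 (chromosome 9, 18292125 to 18317442) encodes a stress-induced HSP90-binding protein. Its FPKM were 9.78, 11.1, 11.2, 10.7 and 13.9 in CDAHFD sham and 6.46, 6.48, 5.34 and 5.08 in CDAHFD RIC, without overlap. It fell by 0.85 (SE 0.14, 1.94-fold, adjusted p = 0.000413).

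The other 3 cochaperone genes were not called in this comparison. St13, which encodes an HSP70-interacting protein, was at 16.6, 18.1, 17.5, 17.8 and 19.3 FPKM in CDAHFD sham and 16.0, 16.1, 14.5 and 15.3 in CDAHFD RIC. These groups did not overlap, and the difference was -0.19 (95% interval -0.36 to -0.03, adjusted p = 0.0701), and it was called lower without NC RIC sample 4 (adjusted p = 0.0387). Cdc37, whose product brings kinases to HSP90, was at 7.86 ± 0.396 and 7.40 ± 0.3798 FPKM, a difference of -0.08 (95% interval -0.23 to 0.08, adjusted p = 0.463). Fkbp5, the immunophilin gene that steroid receptors themselves induce, differed by 0.30 (95% interval -0.07 to 0.67, adjusted p = 0.209), the one cochaperone with a positive difference.

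**Figure D2:**
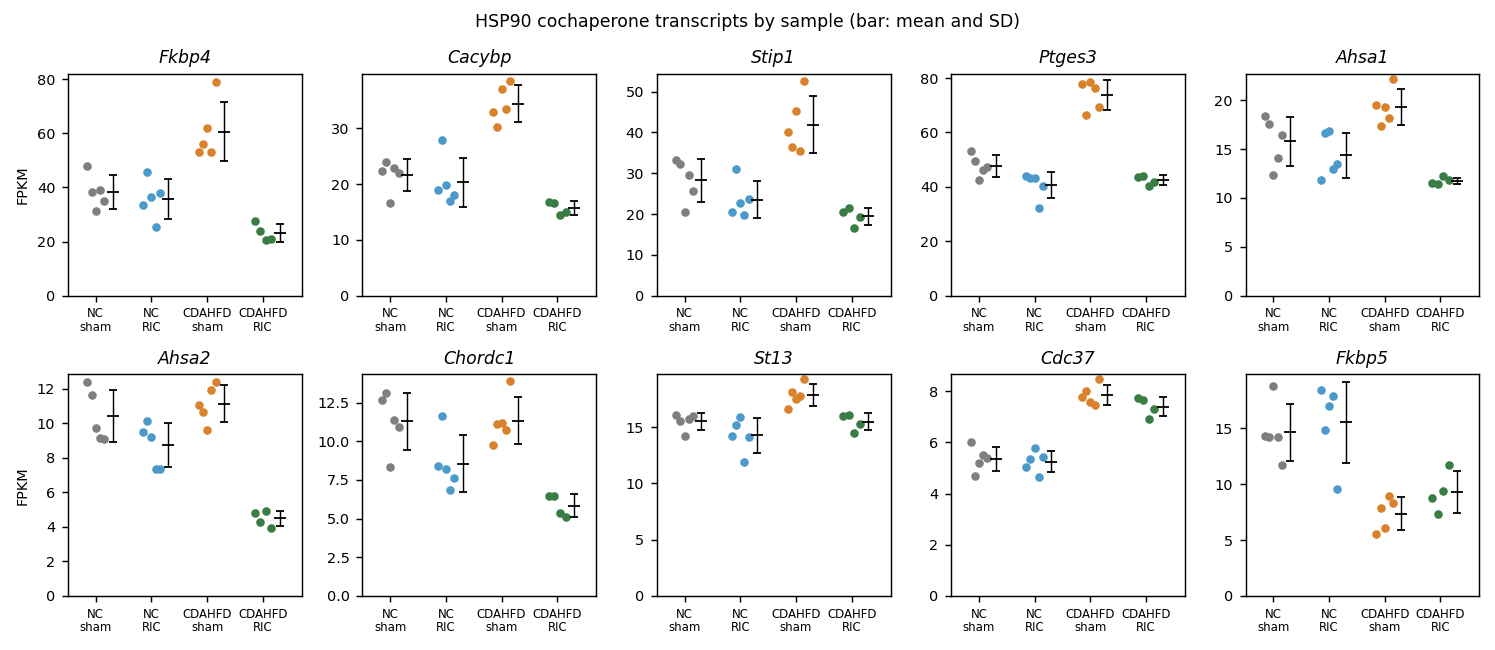
FPKM of the 10 HSP90 cochaperone genes in each of the 19 samples, with the mean and SD of each group beside the points. In Fkbp4, Cacybp, Stip1, Ptges3, Ahsa1, Ahsa2 and Chordc1 the 4 CDAHFD RIC samples lie below the 5 CDAHFD sham samples, and Fkbp5 has lower means in both CDAHFD groups than in both chow groups.

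Promoters of the members were searched for a heat shock element, searched as 3 alternating copies of GAA and its reverse complement TTC with any 2 bases between neighbours, starting with either and read on both strands, in the 250 bases before and the 50 bases after each RefSeq start (build GRCm38.p6, which is mm10). Of the 66 members 55 had a promoter entry. A match stood in 4 of them (7.27%), Chordc1, Hspd1, Hspe1 and Dnajb6, against 179 of 27025 genes in the table (0.662%). The matches are shown to set the letters beside the calls after RIC on CDAHFD: Chordc1 and Hspe1 were called lower, and Hspd1 and Dnajb6 were not called. The other cochaperones that fell and have an entry held no match, which says only that these letters are not in this window. Each line gives 30 bases of the plus strand, 5′ to 3′, with the matching stretch in capitals.
Chordc1: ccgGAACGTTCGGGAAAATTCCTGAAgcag
Hspe1 and Hspd1: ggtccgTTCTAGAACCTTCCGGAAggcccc
Dnajb6: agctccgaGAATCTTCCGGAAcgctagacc
The Chordc1 stretch (chr9:18292260-18292289) holds 3 overlapping matches over 23 bases, from 4 bases before the RefSeq start to 19 after it, and lies in a UTR exon of the GENCODE gene. The stretch at Hspd1 and Hspe1 (chr1:55088053-55088082), which are read in opposite directions from a shared promoter, holds 2 overlapping matches over 18 bases. Its match stands 89 bases before the Hspe1 start and 144 before the Hspd1 start, and it lies in a UTR exon of a GENCODE transcript of Hspd1. The Dnajb6 stretch (chr5:29735844-29735873) holds 1 match of 13 bases, 46 bases before one RefSeq start and 127 before another. A GENCODE transcript of Dnajb6 has a UTR exon there, and a coding exon of Gm5129 lies on the other strand. A match describes the letters and is not a measured binding site. No entry was used for Cct4, Cryab, Dnajc2, Dnajc5, Dnajc11, Dnajc12, Dnajc18, Dnajc22, Dnajc30, Hspa9 and St13.

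In the cytosolic chaperonin, of 8 subunit genes, 4 were called lower after RIC on CDAHFD (Cct2, Cct3, Cct7 and Tcp1) and 4 were not called, against 18.6% called lower among all genes, with a median of -0.24. All 8 differences were negative. The falls were smaller than those of the cochaperones, between 1.23-fold and 1.39-fold. Cct2 (chromosome 10, 117051001 to 117063814) had 61.6, 52.0, 61.0, 53.2 and 61.5 FPKM in CDAHFD sham and 39.8, 44.7, 41.5 and 51.4 in CDAHFD RIC. All RIC samples were below all sham samples, and Cct2 fell by 0.38 (SE 0.10, adjusted p = 0.0112). Tcp1, which gave the complex its first name, had 33.6, 35.5, 34.5, 31.9 and 38.4 and 27.1, 29.5, 29.2 and 27.3 FPKM. It fell by 0.29 (SE 0.08, adjusted p = 0.0134). In the annotation 11.4% of the exon bases of Tcp1 overlap Acat3 on the opposite strand. Acat3 was at 71.7 FPKM in CDAHFD sham and 57.9 in CDAHFD RIC and was not called in limma (-0.30, adjusted p = 0.179). Whether shared reads enter the Tcp1 difference was not tested. Cct7 went from 15.2 ± 1.29 to 12.0 ± 0.847 FPKM without overlap and fell by 0.31 (adjusted p = 0.0186), a call lost without CDAHFD RIC sample 3 (-0.27, adjusted p = 0.0625). Cct3 went from 16.8 ± 2.60 to 12.0 ± 1.497 FPKM with overlap and fell by 0.44 (adjusted p = 0.0319). Its call was lost without any 1 of CDAHFD sham samples 2, 3 or 5 or CDAHFD RIC samples 1 or 3, with adjusted p between 0.0542 and 0.0922.

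The 4 subunits that were not called differed by -0.18 (Cct8, 95% interval -0.35 to -0.01), -0.13 (Cct4, -0.28 to 0.02), -0.10 (Cct5, -0.30 to 0.10) and -0.03 (Cct6a, -0.27 to 0.20). In the annotation 12.5% of the exon bases of Cct6a overlap Psph on the opposite strand. Psph was at 2.11 FPKM in CDAHFD sham and 1.45 in CDAHFD RIC and was called lower in limma (-0.34, adjusted p = 0.0213). None of the 4 subunit calls (Cct2, Cct3, Cct7 and Tcp1) held when FPKM were rescaled to a common sum, where the adjusted p of Cct2 was 0.0808. Under median-ratio scaling the calls of Cct3 (adjusted p = 0.0601), Cct7 (0.0839) and Tcp1 (0.0580) were lost as well. Without CDAHFD sham samples 2 and 5 together those of Cct3 (0.153) and Tcp1 (0.0548) were lost. No subunit was called in the interaction test of RIC by diet, which is the RIC difference on CDAHFD minus that on chow. In NC sham the mean levels of the subunits ran from 10.3 FPKM in Cct3 to 49.3 in Cct8, and Cct8 was the highest subunit in all 4 groups. Cct3 and Cct7 were the lowest pair in each group, with means of 10.3 ± 1.91 and 10.5 ± 1.02 FPKM in NC sham. Since FPKM are scaled to length, these levels can be set beside each other, with the reservation that reads of near-identical copies may be shared out differently between genes.

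**Figure D3:**
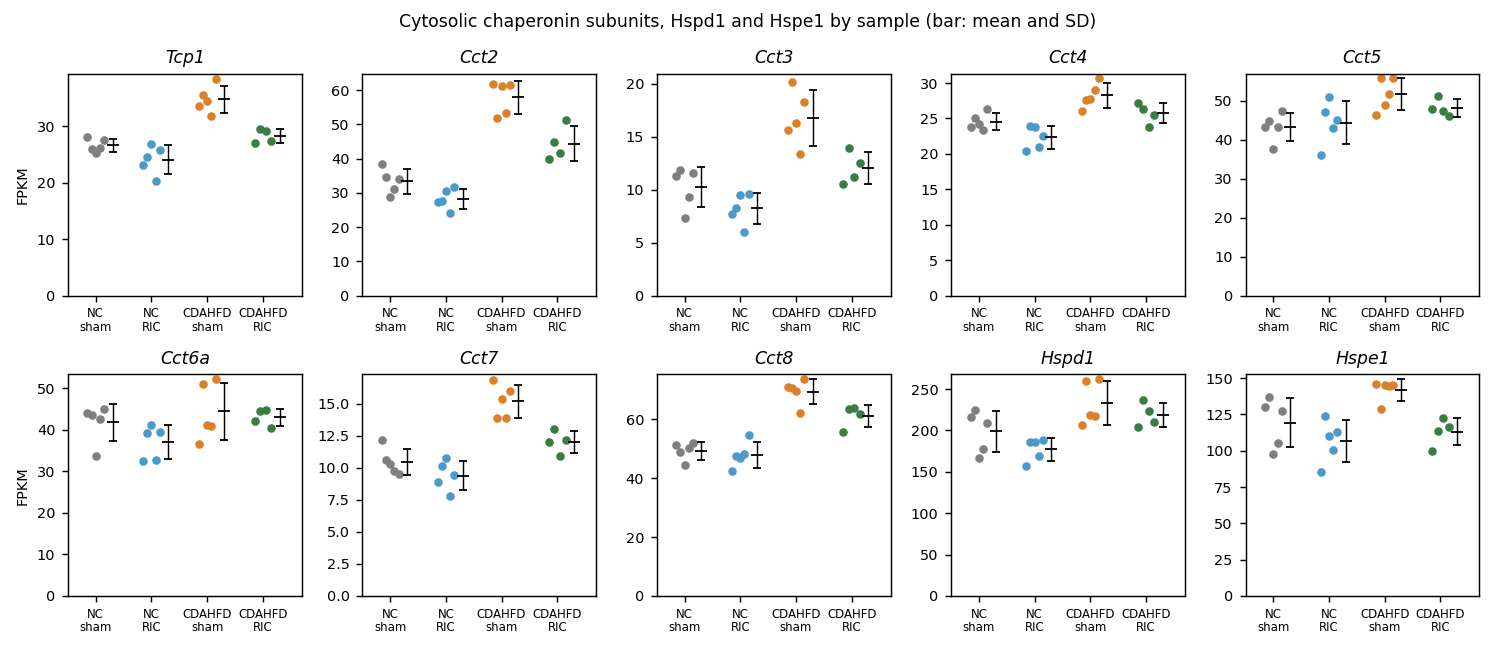
FPKM of the 8 cytosolic chaperonin genes and of Hspd1 and Hspe1 in each of the 19 samples, with the mean and SD of each group beside the points. CDAHFD sham has the highest mean for all 8 subunits, and the CDAHFD RIC samples of Cct2 (39.8 to 51.4) lie between chow and CDAHFD sham.

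Of 3 mitochondrial chaperone genes 1 was called lower after RIC on CDAHFD, against 18.6% of all genes, a number too small to tell from that share. Hspd1 and Hspe1 encode the barrel and the lid of the chaperonin that folds imported proteins in the matrix, and Hspa9 the matrix HSP70. Hspd1 was at 206, 260.0, 219, 217 and 262 FPKM in CDAHFD sham and 205, 237, 224 and 210.3 in CDAHFD RIC, a difference of -0.08 that was not called (95% interval -0.30 to 0.13, adjusted p = 0.567). Hspe1 was at 146, 129, 145, 144 and 145 FPKM in CDAHFD sham and 100.1, 114, 122 and 116 in CDAHFD RIC. It fell by 0.33 (SE 0.11, adjusted p = 0.0366), without overlap, a call that 12 of 29 alternative analyses did not keep. Among them were those without CDAHFD sham sample 1, 3, 4 or 5 or CDAHFD RIC sample 1 or 2, with adjusted p between 0.0615 and 0.111. Hspa9 had 137, 172, 136, 152 and 169.5 FPKM in CDAHFD sham and 182, 177, 174 and 157 in CDAHFD RIC. Its difference was positive, 0.17 (95% interval -0.01 to 0.35, adjusted p = 0.144), and it was called higher under median-ratio scaling (0.29, adjusted p = 0.0272), under quantile normalization (0.25, adjusted p = 0.0499) and without CDAHFD sham samples 2 and 5 (0.28, adjusted p = 0.0211). Exons of Hspd1 and Hspe1 overlap on opposite strands over 112 bases.

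Nucleotide exchange factors of the HSP110 type release ADP from HSP70 and so reset its cycle. Hspa4 had 33.5, 39.0, 35.1, 31.2 and 41.2 FPKM in CDAHFD sham and 26.8, 27.9, 29.1 and 24.6 in CDAHFD RIC. The groups did not overlap and Hspa4 fell by 0.39 (SE 0.09, 1.33-fold, adjusted p = 0.0052), a call lost when values were rescaled to a common sum (adjusted p = 0.0689). Hspa4l, at a level near 3.65 FPKM, differed by -0.23 (95% interval -0.54 to 0.07, adjusted p = 0.245) and was not called.

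The collagen chaperone gene Serpinh1 and the small heat shock protein gene Cryab both had low levels on chow. Serpinh1 (chromosome 7, 99345376 to 99353239) encodes the chaperone of procollagen in the endoplasmic reticulum. It had 2.03, 1.80, 1.91, 0.940 and 2.26 FPKM in NC sham and 13.8, 8.08, 21.7, 19.9 and 17.0 in CDAHFD sham. In CDAHFD RIC it had 6.67, 6.65, 3.61 and 8.54, so that the highest RIC sample exceeded the lowest sham sample. It rose by 2.57 on CDAHFD in sham mice (SE 0.22, 9.01-fold, adjusted p = 6.87e-09) and fell by 1.19 after RIC on CDAHFD (SE 0.24, 2.53-fold, adjusted p = 0.00181).

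Cryab (chromosome 9, 50751325 to 50756636), which encodes a holdase that binds unfolding proteins, had 3.92, 1.89, 4.31, 3.29 and 2.46 FPKM in CDAHFD sham and 1.35, 2.02, 0.893 and 1.45 in CDAHFD RIC. Chow samples were at or below 0.759. It rose by 1.53 on CDAHFD (SE 0.16, 7.61-fold, adjusted p = 5.9e-08) and fell by 0.77 after RIC (SE 0.17, 2.22-fold, adjusted p = 0.00318), with overlap. Exons of Hspb2 on the opposite strand cover 17.0% of its exon bases. Hspb2 was at 0.923 FPKM in CDAHFD sham and 0.665 in CDAHFD RIC.

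Of 10 markers of stellate cells and fibroblasts 9 were tested. All 9 were higher on CDAHFD, against 63.9% of all genes as deposited. After RIC on CDAHFD 4 fell (Acta2, Col1a1, Col1a2 and Col3a1) and 5 were not called, Pdgfrb at -0.30, Lum at -0.14, Dcn at -0.04, Reln at 0.11 and Lrat at 0.37. Of all genes 18.6% were called lower. The summed FPKM of the markers were 20.4 to 36.6 in NC sham, 21.9 to 28.6 in NC RIC, 133 to 254 in CDAHFD sham and 109 to 178 in CDAHFD RIC, and Acta2 was listed at 0 in at least 1 NC sham sample. The part of these cells in the result was not tested. Markers of skeletal muscle, a tissue rich in Cryab, summed to at most 0.800 FPKM in any sample.

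Hspb8, whose product works with the HSP70 cochaperone BAG3 in selective autophagy, was the other small heat shock gene and more abundant, with 95.1, 112, 91.1, 94.9 and 109.8 FPKM in CDAHFD sham and 69.7, 83.9, 105 and 71.7 in CDAHFD RIC. Its difference of -0.29 was not called (95% interval -0.53 to -0.06, adjusted p = 0.0602). CDAHFD RIC sample 3 was the highest of its group, and without it Hspb8 was called lower (-0.42, adjusted p = 0.0113).

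Among the J-proteins, Dnajc28 was the one member that rose after RIC on CDAHFD. Dnajc28 (chromosome 16, 91614254 to 91619026), grouped here with the mitochondrial class C genes, had 3.75, 4.12, 3.53, 3.65 and 3.90 FPKM in NC sham and 2.99, 4.63, 3.27, 2.52 and 4.17 in NC RIC. It had 1.57, 2.21, 1.43, 1.625 and 1.82 in CDAHFD sham and 2.95, 2.81, 2.99 and 3.20 in CDAHFD RIC. Every CDAHFD sham sample was below every other sample of the series. It fell by 0.82 on CDAHFD (SE 0.11, 2.19-fold, adjusted p = 1.49e-06) and rose by 0.55 after RIC on that diet (SE 0.11, 1.73-fold, adjusted p = 0.00231). Both calls held in every alternative analysis in which it was tested.

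Dnajc9 (chromosome 14, 20384638 to 20388910), which encodes a J-protein and histone chaperone, had 4.26, 4.07, 6.70, 4.71 and 4.95 FPKM in CDAHFD sham and 3.56, 3.92, 2.66 and 3.51 in CDAHFD RIC. Chow samples were at 0.748 to 1.61 in NC sham and 0.865 to 1.40 in NC RIC. It rose by 1.53 on CDAHFD (SE 0.12, 4.71-fold, adjusted p = 2.51e-09) and fell by 0.42 after RIC (SE 0.13, adjusted p = 0.0246), without overlap in either comparison. The fall after RIC lost its call without CDAHFD sham sample 3 (adjusted p = 0.0697) or CDAHFD RIC sample 3 (adjusted p = 0.0922). Markers of dividing cells moved with it: all 3 tested of 4 were higher on CDAHFD and lower after RIC on CDAHFD. Of all genes 63.9% were higher on CDAHFD and 18.6% lower after RIC. The sum of these markers was 0.209 to 0.388 FPKM in NC sham, 0.245 to 0.580 in NC RIC, 6.96 to 19.7 in CDAHFD sham and 5.88 or more in CDAHFD RIC, whose highest sample just overlapped the lowest of CDAHFD sham, and Ccnb1 and Top2a were listed at 0 in some chow samples. The part of dividing cells in the result was not tested.

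The remaining J-protein falls after RIC on CDAHFD were Dnajb2, Dnaja4 and Dnajc15. Dnajb2, which couples HSP70 to ubiquitinated clients, had 4.44, 7.16, 6.32, 4.95 and 7.10 FPKM in CDAHFD sham and 2.71, 4.67, 5.34 and 3.63 in CDAHFD RIC, with overlap, and fell by 0.47 (adjusted p = 0.0308). The cytosolic class A gene Dnaja4 went from 1.92 ± 0.335 to 1.28 ± 0.164 FPKM without overlap and fell by 0.35 (adjusted p = 0.0305). Exons of Wdr61 on the opposite strand cover 44.1% of the exon bases of Dnaja4, and Wdr61 was at 7.43 and 8.57 FPKM. Dnajc15, a J-protein of the inner mitochondrial membrane, went from 3.88 ± 0.258 to 3.19 ± 0.316 FPKM and fell by 0.22 (adjusted p = 0.0308). Calls of Dnajb2, Dnaja4, Dnajc15 and Dnajc9 were lost in 8 to 11 of 28 or 29 alternative analyses, among them the rescaling to a common sum and the median-ratio scaling for each. Dnajb2 lost it without CDAHFD sham samples 2, 3 or 5 or CDAHFD RIC samples 1 or 4 (adjusted p up to 0.124), and Dnaja4 without CDAHFD sham samples 3 or 5 or CDAHFD RIC samples 1, 3 or 4 (up to 0.0777). Dnajc15 lost it without CDAHFD sham samples 1, 3 or 4 or CDAHFD RIC samples 1, 2 or 3 (up to 0.108).

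Several J-protein genes, some of them abundant and some low, showed no call after RIC on CDAHFD. Dnaja2, a general cytosolic J-protein, was at 60.6 ± 4.82 FPKM in CDAHFD sham and 59.2 ± 4.06 in CDAHFD RIC (-0.03, 95% interval -0.18 to 0.11). Dnajc22 was at 37.1 ± 7.68 and 38.3 ± 6.52 FPKM (0.05, -0.24 to 0.34), and the mitochondrial Dnaja3 at 20.8 ± 0.800 and 19.03 ± 2.95 (-0.13, -0.36 to 0.09). Dnajc7, which binds HSP70 and HSP90 through its repeats, was at 11.7 ± 1.12 and 11.3 ± 1.23 FPKM (-0.05, -0.24 to 0.13). Dnajc12, which stabilizes aromatic amino acid hydroxylases, was at 1.70 ± 0.298 and 1.622 ± 0.160 FPKM (-0.04, -0.38 to 0.30). Each of these intervals includes 0. Dnajb6, whose product suppresses protein aggregation, had 10.9, 12.1, 10.7, 11.2 and 11.4 FPKM in CDAHFD sham and 12.4, 14.3, 13.2 and 12.7 in CDAHFD RIC. These did not overlap, and the difference of 0.20 was not called (adjusted p = 0.0642) but was called higher under each of the common sum, median-ratio and quantile scalings, with adjusted p of 0.0212, 0.0257 and 0.0151, and without NC sham sample 1 (adjusted p = 0.0481) or CDAHFD sham sample 2 (0.0470). Dnajb11, a J-protein of the endoplasmic reticulum that serves BiP, was at 17.9 ± 2.05 and 13.2 ± 1.92 FPKM (-0.42, adjusted p = 0.0637). It was called lower without NC sham sample 3, NC RIC sample 4 or CDAHFD sham sample 2, with adjusted p between 0.0345 and 0.0419. The ribosome-associated Dnajc2 was at 7.17 ± 0.940 and 5.87 ± 0.526 FPKM (-0.25, adjusted p = 0.0643) and was called lower without CDAHFD sham sample 4 (adjusted p = 0.0318). Dnajc5, a vesicle gene, had 5.36, 5.05, 5.62, 4.97 and 5.13 FPKM in CDAHFD sham and 3.39, 4.19, 3.80 and 4.11 in CDAHFD RIC, without overlap. Its difference of -0.36 was not called (adjusted p = 0.0637), and was called lower without NC RIC sample 2 (adjusted p = 0.0048), which stood apart from its own group in this gene.

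Other chaperone genes outside the set were counted beside the members. Of 57 such genes, among them HSP90, HSP70, their exchange factors and prefoldin, 52 were tested. After RIC on CDAHFD 20 were lower and 3 higher (18.6% and 8.72% of all genes), with a median of -0.19. Hsp90aa1 (-0.98) and Hspa8 (-0.93), which encode an HSP90 and an HSP70 that the cochaperones serve, were among the lower. The more abundant cytosolic HSP90 gene, Hsp90ab1, had means of 237 FPKM in CDAHFD sham and 157 in CDAHFD RIC. Those of Hsp90aa1 were 90.6 and 44.4. On chow RIC gave 6 lower and none higher of the 52 (0.860% and 0.321% of all genes). The diet in sham mice gave 32 higher and 6 lower as deposited (63.9% and 10.3% of all genes), with a median of 0.44.

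The diet comparison, CDAHFD sham against NC sham, asked what the diet itself does. As deposited, 47 of 59 members were called, 44 higher and 3 lower, against 74.2% of all genes called, 63.9% higher and 10.3% lower. Groups did not overlap for 33 members higher and 3 lower, against 52.4% and 6.91% of all genes (59.3% in either direction). The median of the members was 0.34 and of all genes 0.45, and the share of members called (79.7%) was near that of all genes. The direction of most members depended on scaling. Under median-ratio scaling, which moved the median of all genes to -0.06, 32 members were called, 7 higher and 25 lower, and under quantile normalization 34, 12 higher and 22 lower. Without CDAHFD sham samples 2 and 5 there were 38, 34 higher and 4 lower. Of all calls among all genes 86.1% were higher as deposited, 43.9% under median-ratio scaling and 47.6% under quantile normalization. Across all alternatives 9 calls were kept: 6 higher (Serpinh1, Dnajc9, Cryab, Dnajc10, Dnajc4 and Dnajc5) and 3 lower (Fkbp5, Dnajc28 and Dnajc3).

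**Figure D4:**
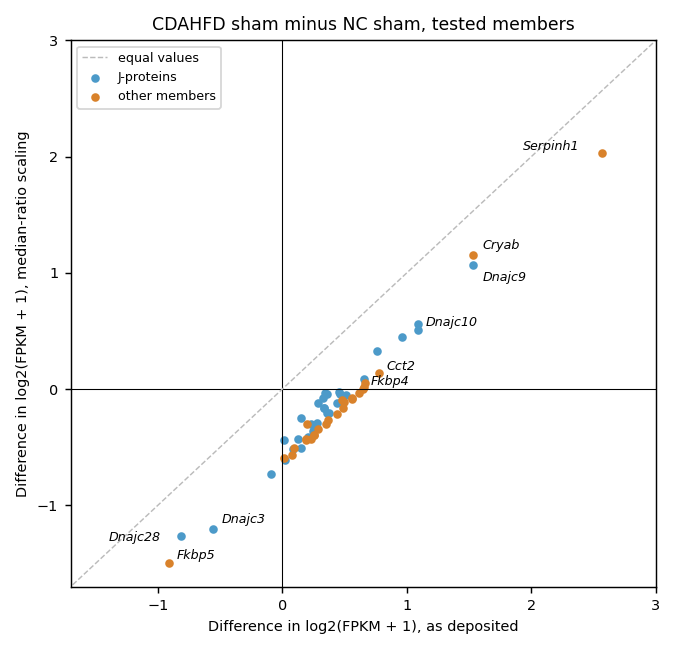
Difference between CDAHFD sham and NC sham (n = 5 each) for the 59 tested members, in log2(FPKM + 1), with the deposited scale on the horizontal axis and median-ratio scaling on the vertical axis. Most points lie lower on the vertical than on the horizontal scale, so that Fkbp4 moves from 0.65 to near 0, while Serpinh1, Cryab, Dnajc9 and Dnajc10 stay above 0 and Fkbp5, Dnajc28 and Dnajc3 below it on both scales.

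Dnajc10, which encodes a reductase of the endoplasmic reticulum that breaks wrong disulfide bonds, went from 4.31, 4.39, 4.71, 5.04 and 5.28 FPKM in NC sham to 8.58, 11.6, 11.9, 11.9 and 12.5 in CDAHFD sham. The groups did not overlap and it rose by 1.09 (SE 0.11, 2.38-fold, adjusted p = 7.78e-08). Dnajc4 went from 2.62 ± 0.673 to 6.63 ± 1.01 FPKM and rose by 1.09 (SE 0.13, adjusted p = 4.72e-07). Dnajc5, the cysteine string protein gene of secretory vesicles, went from 2.21 ± 0.241 to 5.22 ± 0.262 FPKM and rose by 0.96 (SE 0.13, adjusted p = 2.39e-06). Dnajc3, whose product assists BiP in the endoplasmic reticulum, went the other way. Its FPKM were 49.8, 51.2, 41.5, 51.6 and 47.8 in NC sham and 26.6, 35.0, 29.0, 35.6 and 36.7 in CDAHFD sham, without overlap, and it fell by 0.56 (SE 0.13, 1.48-fold, adjusted p = 0.000962). Dnajc10 and Dnajc3 thus moved in opposite directions within the same organelle.

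**Figure D5:**
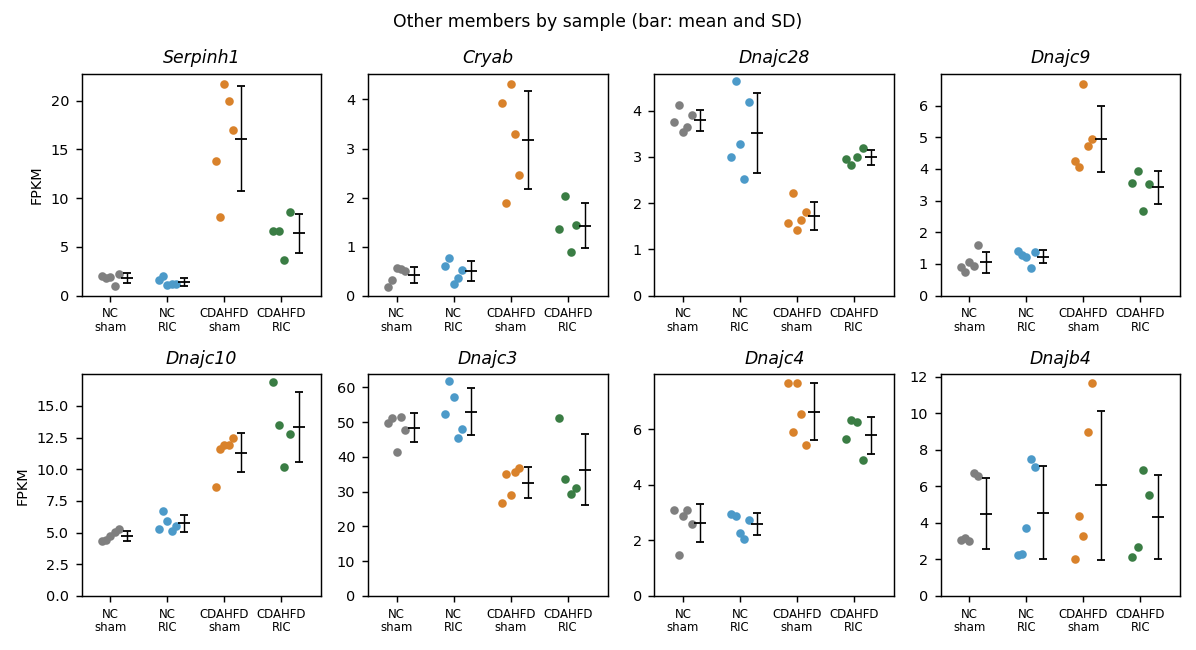
FPKM of Serpinh1, Cryab and 6 J-protein genes in each of the 19 samples, with the mean and SD of each group beside the points. Dnajc28 is lowest in CDAHFD sham, and its CDAHFD RIC samples lie below all NC sham samples and inside the range of NC RIC. The means of Dnajc3 are lower and those of Dnajc10 and Dnajc4 higher in both CDAHFD groups, and Dnajb4 is widely spread inside each group.

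Fkbp5 had 14.3, 14.2, 18.8, 14.2 and 11.7 FPKM in NC sham, 18.4, 14.8, 16.9, 17.9 and 9.54 in NC RIC, 5.53, 7.87, 6.09, 8.90 and 8.32 in CDAHFD sham and 8.74, 7.29, 9.37 and 11.8 in CDAHFD RIC. It fell by 0.91 on CDAHFD in sham mice (SE 0.17, 1.99-fold, adjusted p = 7.33e-05), without overlap. Of 8 other glucocorticoid-responsive genes set beside it, all tested, 5 were lower on CDAHFD (Tsc22d3, Klf9, Zbtb16, Errfi1 and Tat) and 3 higher (Per1, Sgk1 and Dusp1). Of all genes 10.3% were lower and 63.9% higher. Fkbp4, the counterpart of Fkbp5 on the same receptors, rose by 0.65 as deposited (adjusted p = 0.000602) and differed by 0.0019 under median-ratio scaling. Cacybp (0.66), Ptges3 (0.62), Stip1 (0.56) and Cdc37 (0.48) were also higher as deposited. Under median-ratio scaling Cacybp was at 0.02 and Ptges3, Stip1 and Cdc37 were below 0. Ahsa2 (0.10) and Chordc1 (0.01) were not called as deposited. Ahsa1 (mean 15.8 FPKM in NC sham and 19.3 in CDAHFD sham) and St13 (15.5 and 17.9) were called higher as deposited and were below 0 under median-ratio scaling. Both lost the call without CDAHFD sham sample 5 or NC sham sample 3, with adjusted p between 0.0659 and 0.0872. Ahsa1 lost it without NC sham sample 4 too (adjusted p = 0.0629).

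By role, as deposited, where 63.9% of all genes were higher on CDAHFD, 4 of 9 class A and B J-proteins were higher, and of 24 class C J-proteins 19 were higher and 2 lower. The difference between the classes was not tested, and these directions turn for many genes under median-ratio scaling. Within class C the nuclear, ribosomal and splicing genes were higher in 5 of 5, the mitochondrial in 5 of 6 with Dnajc28 lower, and those of the endoplasmic reticulum in 4 of 6 with Dnajc3 lower. In the chaperonin, 7 of 8 subunits were higher on CDAHFD as deposited, with a median of 0.43 that lies beside the 0.45 of all genes. Cct2 rose most, by 0.78 (SE 0.10, adjusted p = 6.45e-07), and was at 0.13 (adjusted p = 0.149) under median-ratio scaling. The mitochondrial Hspa9 (0.35), Hspe1 (0.26) and Hspd1 (0.23), as well as Hspa4 (0.56) and Hspb8 (0.44), were higher as deposited and each was below 0 under median-ratio scaling. The call of Hspd1 was also lost without CDAHFD sham sample 2 or 5 or NC sham sample 3 or 4 (adjusted p between 0.0972 and 0.120), and with no filter, array weights or only the groups compared. That of Hspe1 was lost with no filter and without CDAHFD sham sample 1, 3, 4 or 5 or NC sham sample 3 or 4 (adjusted p between 0.0577 and 0.111). Hspa4l differed by 0.20 and was not called.

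The comparison of NC RIC with NC sham asked what conditioning does on chow. In limma no member was called among 59, against 1.18% of all genes (0.321% higher, 0.860% lower), and 9 had an unadjusted p under 0.05. Array weights gave 2 calls (Dnaja2 lower, Dnajc18 higher) and median-ratio scaling 1 (Dnajc18 higher). Differences ran from -0.37 (Chordc1, 95% interval -0.64 to -0.10) to 0.30 (Dnajc12, -0.02 to 0.63), with a median of -0.10 where all genes had -0.06. Dnaja2 was at 54.6, 56.0, 52.5, 55.5 and 54.3 FPKM in NC sham and 46.5, 47.3, 46.1, 45.9 and 45.7 in NC RIC, without overlap, a difference of -0.23 (95% interval -0.37 to -0.10, adjusted p = 0.082). Dnajc18 was higher in every NC RIC sample than in every NC sham sample (0.26, 95% interval 0.09 to 0.43, adjusted p = 0.126). These 2 were the members whose groups did not overlap, where 4.75% of all genes did not (0.993% higher, 3.75% lower). Among cochaperones that fell on CDAHFD, the chow difference was -0.10 for Fkbp4 (95% interval -0.41 to 0.20), -0.10 for Cacybp (-0.34 to 0.15) and -0.25 for Stip1 (-0.54 to 0.04). The interval of the Stip1 and Cacybp differences on chow includes 0, as does that of Fkbp4, and that of Chordc1 does not. The mean FPKM in NC sham and NC RIC were 47.7 and 40.6 for Ptges3, 10.4 and 8.71 for Ahsa2 and 15.8 and 14.4 for Ahsa1. In each of these genes the mean was lower in NC RIC. Their intervals on chow are not given here, so Chordc1 is not shown to be the only fallen cochaperone whose interval excludes 0. Of all 10 cochaperones 9 had a negative difference on chow and 1 a positive one, with a median of -0.12.

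Whether RIC acted differently on the diets was tested as an interaction. It was called for 10 members, 9 lower and 1 higher, against 6.72% of all genes (3.13% lower, 3.59% higher). HSP90 cochaperones made up 6 of the 10, among 10 cochaperones tested. The differences, each followed by its adjusted p, were as follows: Fkbp4 (-1.24, 0.00251), Cacybp (-0.99, 0.00286), Ahsa2 (-0.91, 0.00186), Stip1 (-0.81, 0.0231), Ptges3 (-0.55, 0.0164) and Ahsa1 (-0.54, 0.0472). Cryab (-0.85, adjusted p = 0.0328), Dnaja4 (-0.58, 0.0353) and Dnajc18 (-0.41, 0.0472) were also lower, and Dnajc28 was higher (0.66, SE 0.16, adjusted p = 0.018). Fkbp4, Cacybp, Ahsa2 and Dnajc28 kept the call in every alternative in which they were tested, while the others lost it in 1 to 21 alternatives. Ptges3 lost it under the common sum, and Stip1 under the common sum (adjusted p = 0.0598), with no filter (0.0571) and without CDAHFD RIC sample 3 (-0.74, adjusted p = 0.0523). Ahsa1, Cryab, Dnaja4 and Dnajc18 lost it without any 1 of 8 or more samples spread over all 4 groups, with adjusted p up to 0.0905. Without CDAHFD sham samples 2 and 5 together 7 members were lower and 3 higher. The count itself was 5 without CDAHFD RIC sample 3 and 6 without NC sham sample 2 or CDAHFD sham sample 3. Chordc1 was not called in the interaction (-0.48, 95% interval -0.87 to -0.08), nor was Serpinh1 (-0.98, -1.66 to -0.30, adjusted p = 0.0752), which was called without CDAHFD sham sample 2 (-1.19, adjusted p = 0.0124) and with array weights (-1.05, adjusted p = 0.0345). Dnajc5 was not called (-0.58, adjusted p = 0.073) and was called without NC RIC sample 2 (-0.41, adjusted p = 0.0450).

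CDAHFD RIC was also set against NC RIC, which shows the diet difference among conditioned mice and shares its samples with the comparisons above. Called members numbered 37 of 59, 30 higher and 7 lower, against 70.3% of all genes (63.6% higher, 6.68% lower). Groups did not overlap for 26 members higher and 3 lower, against 53.3% and 4.63% of all genes (58.0% in either direction). Under median-ratio scaling 5 were higher and 37 lower, and under quantile normalization 8 and 24. The lower members as deposited included 5 of 10 cochaperones, given here with difference and adjusted p: Ahsa2 (-0.82, 3e-06), Fkbp5 (-0.67, 0.00263), Fkbp4 (-0.59, 0.00261), Chordc1 (-0.47, 0.00547) and Cacybp (-0.33, 0.026). Dnajc3 (-0.56) and Dnaja4 (-0.30) were the other lower members. Chordc1, Cacybp and Dnaja4 lost the call when values were rescaled to a common sum, Cacybp also without NC RIC sample 2 or CDAHFD RIC samples 3 or 4 (adjusted p up to 0.0799), and Dnaja4 also without NC RIC samples 2 or 5 or CDAHFD RIC samples 3 or 4 (up to 0.0890). Fkbp4 and Cacybp had diet differences of opposite sign under the procedures as deposited: 0.65 among sham mice and -0.59 among conditioned mice for Fkbp4, and 0.66 and -0.33 for Cacybp.

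Rises between CDAHFD RIC and NC RIC were largest in Serpinh1 (1.59, SE 0.24, 4.57-fold), Dnajc10 (1.08), Dnajc9 (0.98), Dnajc4 (0.93), Dnajc8 (0.73) and Dnajb12 (0.71). Dnajc8, a gene of the splicing machinery, and Dnajb12, a J-protein of the endoplasmic reticulum membrane, lost the call under median-ratio scaling (0.17 and 0.16), Dnajc8 also under quantile normalization, and the first 4 kept it in every alternative. Dnajc10 was at 16.9, 13.5, 10.2 and 12.8 FPKM in CDAHFD RIC against 5.31, 6.72, 5.94, 5.13 and 5.51 in NC RIC, so that it was high on the diet with either procedure. Serpinh1 stayed 4.57-fold above NC RIC at 6.37 ± 2.04 FPKM, against 9.01-fold among sham mice.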

How the data were processed

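Total RNA of 19 mouse liver samples was extracted with Trizol and made into libraries with a VAHTS kit, per the labels. The authors deposited 1 table of FPKM per gene and sample. The submitters' processing notes name FastQC 0.11.9, Trimmomatic 0.38, HISAT2 2.2.1, HTSeq 0.13.5, R 3.4.1, DESeq2 1.18.1 and the mm10 build, without role or order. How FPKM were calculated and whether strand was used is not given in the sources used here. Groups come from the sample titles.

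Of 55335 entries 3225 had no name and were left out, leaving 52110. Differences were tested with limma 3.58.1 (trend) in R 4.3.3 on log2(FPKM + 1) for the 10577 genes whose mean reached 1 FPKM. The model had a mean for each of the 4 groups and 15 residual degrees of freedom, and tests were two-sided with Benjamini-Hochberg adjustment over all genes tested. The pseudocount understates changes of low genes. Depth was estimated at 15900000 to 26400000 fragments from genes with 1 exon. The commonest product of FPKM and exon length in a sample was assumed to stand for 1 fragment. Counting error is not modelled. The script was tested on simulated data. Alternatives were a pseudocount of 0.1, no filter and a filter of 5 FPKM, a common sum, median-ratio and quantile scaling, array weights, only the groups compared, a replicate block, leaving out each sample, and, added after the data were seen, leaving out CDAHFD sham samples 2 and 5 together.

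Members, roles, gene lists (other chaperones, glucocorticoid-responsive genes, cell type markers) and tests were chosen with earlier results of these data known. Named are all members that are not J-proteins, 12 listed J-proteins and the 6 largest called rises and falls of each comparison. Positions and overlaps are from GENCODE M21, promoters from RefSeq GRCm38.p6.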

Additional observations from a re-analysis of the deposited data

Results flagged for a closer look

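The effect of RIC on CDAHFD minus that on chow passed the test for 10 members. In log2 units it was -1.24 for Fkbp4, -0.99 for Cacybp, -0.91 for Ahsa2, -0.81 for Stip1, -0.55 for Ptges3 and -0.54 for Ahsa1 among the HSP90 cochaperones, -0.85 for Cryab, and -0.58, -0.41 and 0.66 for the J-protein genes Dnaja4, Dnajc18 and Dnajc28.

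A single sample lay far from the rest of its group, by Dixon's test at the 95% level, in 12 of 236 combinations of member and group (5.08%), where chance gives about 5%. NC sham sample 3 stood apart in 3 members: Cacybp at 16.6 FPKM, Cct6a at 33.7 and Hspa4 at 20.9. NC RIC sample 2 stood apart in Cacybp (27.9 FPKM), Dnajc5 (4.92) and Hspa4l (5.54). CDAHFD sham sample 2 stood apart in Dnajb11 (14.4 FPKM) and Hspe1 (129). Sample 4 stood apart in Dnajc25 in both NC sham (4.25 FPKM) and NC RIC (4.16), and in Dnajc22 in CDAHFD RIC (28.5). CDAHFD sham sample 1 was the lowest of its group in Dnajc10 (8.58 FPKM).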

How the results depend on the processing

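For the diet difference in sham mice, median-ratio scaling turned the sign of 40 members with a call on either scale, 22 of them J-proteins. The 18 others were Chordc1 (-0.59), Cct6a (-0.56), Ahsa2 (-0.50), Cct4 (-0.44), St13 (-0.43), Hspd1 (-0.43), Hspe1 (-0.40), Cct5 (-0.39), Ahsa1 (-0.34), Hspa9 (-0.30), Tcp1 (-0.27), Hspb8 (-0.21), Cct8 (-0.17), Cct7 (-0.11), Cdc37 (-0.091), Stip1 (-0.082), Hspa4 (-0.080) and Ptges3 (-0.033). Quantile normalization turned 29, of which 21 were J-proteins and the others Chordc1 (-0.43), Ahsa2 (-0.36), Hspa4l (-0.34), Cct4 (-0.20), St13 (-0.20), Ahsa1 (-0.11), Cdc37 (-0.019) and Cct5 (-0.011). For diet in conditioned mice the numbers were 28 and 18. These scalings force the middle gene to near 0, where the deposited median was 0.45. The RIC difference on CDAHFD gave 11 called members in place of 20 under the common sum and 14 to 22 when 1 sample was left out. On chow the count was 1 under median-ratio scaling, 2 with array weights and 0 without any 1 sample. The interaction gave 5 called members without a filter, 6 with the filter of 5 FPKM, 5 under the common sum and 5 to 11 when 1 sample was left out. With 1 sample left out, the counts were 40 to 47 for diet in sham mice and 35 to 38 for diet in conditioned mice. A filter of 5 FPKM gave 33 called members for diet in sham mice. For all these changes the cause was not tested, except that the higher filter leaves fewer genes.

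Same-numbered samples did not deviate together in every pair of any 2 groups (correlations from -0.174 to 0.154 between CDAHFD sham and CDAHFD RIC), so the numbers were not taken to pair samples. Between NC RIC and CDAHFD sham the correlations of same-numbered samples ran from -0.0536 to 0.123 (median 0.0683). Those of other pairs of samples in these groups ran from -0.112 to 0.0542 (median -0.0074). Whether the numbers mark a shared batch was not tested. With the replicate number as a block the counts of called members were 46 for diet in sham mice, 17 for RIC on CDAHFD, 0 for RIC on chow, 38 for diet in conditioned mice and 7 for the interaction.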

Other observations

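Dnajb4, a cytosolic J-protein gene of class B, was called in no comparison and varied widely within every group. Its FPKM were 3.06, 3.17, 3.01, 6.72 and 6.56 in NC sham and 2.25, 2.27, 3.75, 7.50 and 7.05 in NC RIC. They were 2.04, 4.38, 3.27, 8.95 and 11.6 in CDAHFD sham and 2.11, 2.68, 6.92 and 5.54 in CDAHFD RIC. Samples 4 and 5 were the highest in NC sham, NC RIC and CDAHFD sham, and samples 3 and 4 in CDAHFD RIC, which has no sample 5.

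Below the level required for testing, Dnajb13 was at 0.00 to 0.209 FPKM in NC sham, 0.00 to 0.0451 in NC RIC, 0.202 to 0.600 in CDAHFD sham and 0.355 to 0.477 in CDAHFD RIC, and 11.2% of its exon bases overlap Ucp2. Dnajc27 was at 0.00 to 0.104 FPKM in NC sham, 0.0422 to 0.0738 in NC RIC, 0.115 to 0.369 in CDAHFD sham and 0.231 to 0.288 in CDAHFD RIC. For Dnajb13 and Dnajc27 every CDAHFD RIC sample was above every chow sample, and these members were picked after their values were seen.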
